A study of Aethionema arabicum with 12 samples.

Results

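Imbibed seeds of *Aethionema arabicum*, a small annual of the cabbage family, were compared after equal time in water but a different second week. The 3 dark libraries came from seeds given 7 d of white light followed by 7 d of darkness, and the 3 light libraries came from seeds given 14 d of white light. The light was 100 µmol m-2 s-1 and the seeds were kept moist on filter paper, at 14 °C throughout. The seeds of both groups were of the Cyprus accession, with no mutation or chemical treatment in the labels, and were intact and had not germinated at collection. These 6 libraries of the 12 in the series were chosen by their labels. The other 6 came from seeds given 23 h or 7 d of light, with 3 libraries each, and entered the same model. The 7 d light seeds had the same light exposure as the dark seeds had before darkness began, so their levels are given beside the main comparison. The comparison asks which transcripts differ when the second week of a light treatment that induces secondary dormancy is replaced by darkness.

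Plants read light through phytochromes, cryptochromes and other photoreceptors. In Arabidopsis, active photoreceptors restrain the COP1-SPA complex, which in darkness marks light-promoting transcription factors such as HY5 and its close relative HYH for destruction. Those factors switch on genes for flavonoid pigments, photoprotection and plastid function. Seeds also use light to set the balance of abscisic acid, which maintains dormancy, and gibberellin, which promotes germination. Germination of the Cyprus accession is inhibited by light, the opposite of the response known from Arabidopsis. Gene names below are those of the Arabidopsis genes that the deposited table pairs with the *Aethionema* gene models, and roles are those known from Arabidopsis.

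The dark libraries held 1558411, 1299536 and 1900418 counted reads, and the 14 d light libraries held 916523, 2448092 and 1364240. Of 24932 gene models, 15301 had enough counts to be tested, and the untested ones held 0.379% of the counts. Levels are given as CPM (read counts scaled to a common library total) after TMM scaling, and the term called means a Benjamini-Hochberg adjusted p under 0.05 in the quasi-likelihood test of edgeR. Changes are log2 ratios of dark over 14 d light with their standard errors. In dark seeds 925 models (6.05% of those tested) were higher and 1074 (7.02%) were lower than in 14 d light seeds, together 13.1%. Changes of at least 2-fold were fewer among the higher genes, with 179 models (1.17%), than among the lower genes, with 508 (3.32%), and changes of at least 8-fold numbered 12 (0.0784%) and 68 (0.444%). Genes low in dark seeds could pass the count filter through any light group, so the directions are not compared on equal terms. Of all calls, models under 0.01 reads per base of length gave 33 higher and 109 lower, and those at 0.01 to 0.03 gave 175 and 291. Models at 0.03 to 0.1 gave 519 and 485, those at 0.1 to 0.3 gave 194 and 171, and those over 0.3 gave 4 and 18. The median change over all genes tested was −0.03. The number of calls depended on single libraries. The higher count was 543 without dark library 1, 550 without dark library 3 and 519 without 14 d light library 3, and the lower count was 673 without dark library 1 and 639 without dark library 3. The count of genes at least 2-fold higher was 296 without 14 d light library 2. That library stood apart from the other 2 of its group: its counts differed from theirs with a chi-square per degree of freedom of 7.68 and 6.33, against 1.38 between those 2 and 1.45 to 3.51 among the dark libraries. It was also the deepest of the 6, and this statistic rises with read depth for the same relative difference. Nothing in the labels ties the 3 libraries of a group to separate batches of seed, so each p measures only how these libraries vary, and part of that may be technical. In RNA from whole seeds, fewer cells of a type and less of a transcript per cell cannot be told apart.

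Groups of genes with a common role were not affected alike. Of the flavonoid enzymes 16 of 17 tested models fell, and 9 of 12 photoprotection genes fell, while in neither list did any gene rise. Of the genes known to respond to darkness and starvation, 6 of 14 rose and none fell. Storage protein and late embryogenesis genes gave no calls, nor did models paired with organelle-encoded Arabidopsis genes. These counts stand beside the 6.05% and 7.02% of all genes tested that were called higher and lower.

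**Figure D1:**
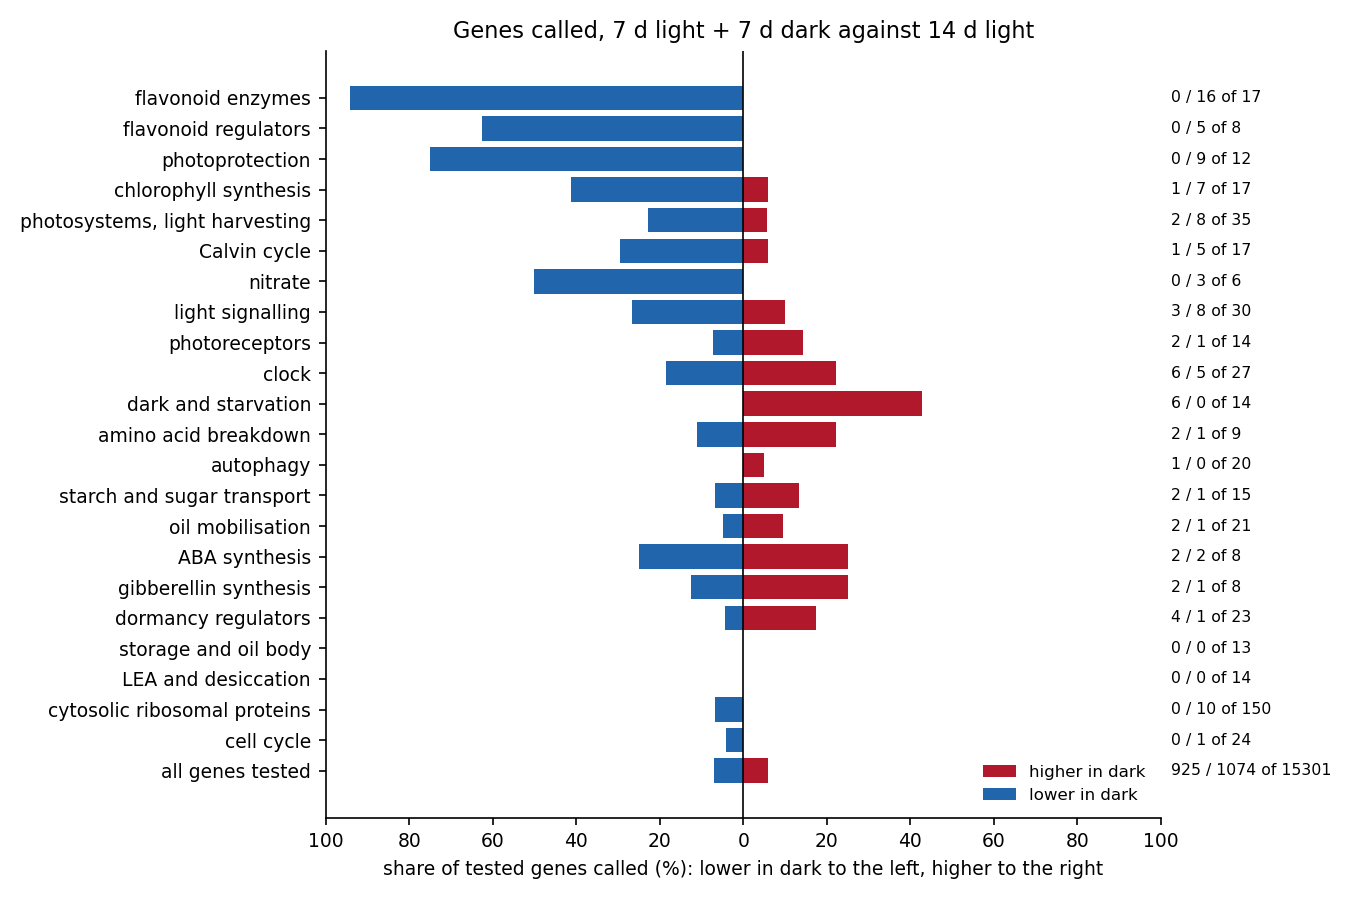
Share of tested genes of each list called lower (left, blue) or higher (right, red) in 7 d light + 7 d dark seeds against 14 d light seeds, with the numbers higher / lower of those tested at the right edge. The longest bar belongs to the flavonoid enzymes, with 16 of 17 lower, while among all genes tested 925 were higher and 1074 lower of 15301.

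The genes of flavonoid and anthocyanin synthesis had the highest share of called members among the lists described. Flavonoids are phenolic pigments that absorb ultraviolet and excess visible light, and they also colour the seed coat. Of 23 models in the list 17 had enough counts to be tested. Their median change was −3.30, or −2.89 with the gene that had no dark count set to its smallest possible change, beside −0.03 over all genes. The 16 called models did not overlap between groups, which nearly follows from the call. Of all 1074 models called lower, 1045 did not overlap, while 14.1% of all genes tested had every dark library below every 14 d light library.

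The entry to the pathway was lower in dark seeds at each step. *PAL1* (Aa31LG5G22310) encodes phenylalanine ammonia-lyase, which takes phenylalanine out of protein metabolism, and it had 24.3, 18.7 and 28.9 CPM in dark seeds against 389, 307 and 332 CPM in 14 d light seeds. The change was −3.81 ± 0.15, a 14.0-fold lower level, with the smallest adjusted p of the list (2.99e-08, edgeR). *C4H* (Aa31LG5G6280), the next enzyme, had 54.1, 49.7 and 54.9 CPM in dark seeds against 271, 231 and 283 CPM in 14 d light seeds, and its change was −2.30 ± 0.13. *4CL3* (Aa31LG2G2250), which activates coumarate for flavonoid synthesis, changed by −2.89 ± 0.24. The libraries of each group lay close together for these genes, and the highest dark value was far below the lowest light value.

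Chalcone synthase, which commits carbon to flavonoids, followed the same pattern. *CHS* (Aa31LG5G11220) had 39.9, 28.5 and 31.1 CPM in dark seeds against 462, 268 and 383 CPM in 14 d light seeds, a change of −3.47 ± 0.22 (adjusted p = 7.48e-07, edgeR). Its partner proteins *CHIL*, which raises the accuracy of chalcone synthase, and *CHI*, chalcone isomerase, changed by −3.70 ± 0.29 and −2.50 ± 0.18. The single tested model that was not called was *F3H* (Aa31LG4G19270), flavanone 3-hydroxylase, which sits between these enzymes and the branches to flavonols and anthocyanins. *F3H* had 471, 499 and 413 CPM in dark seeds against 951, 482 and 747 CPM in 14 d light seeds. The groups overlapped only through 14 d light library 2. Its change of −0.65 ± 0.21 had an adjusted p of 0.061 in edgeR, and without that library it was −0.88 with an adjusted p of 0.0036. Leaving out the library that overlaps necessarily widens the difference. It was also called lower by DESeq2 (adjusted p = 0.0497), with scaling to total counts alone (0.0383) and with length and read density trends removed. These were 4 of the 13 alternatives that tested *F3H*, and the rest did not call it. Over the 13 its change ran from −0.88 to −0.39. The *F3H* model carried up to 0.70 reads per base of its length, among counts that reached at most 0.996 reads per base in any of the 12 libraries, and with those trends removed its change was −0.63 (adjusted p = 6.05e-06, edgeR).

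Later steps held the largest fitted changes of the list. *DFR* (Aa31LG9G12870), dihydroflavonol reductase, opens the anthocyanin branch and had 4.06, 3.26 and 3.88 CPM in dark seeds against 129, 79.5 and 120.0 CPM in 14 d light seeds. The change of −4.81 ± 0.27 made it 28.0-fold lower (adjusted p = 3.10e-07, edgeR). Both models paired with *LDOX*, which makes anthocyanidins, fell, by 3.30 ± 0.19 (Aa31LG6G4950) and 3.34 ± 0.31 (Aa31LG1G20510) on the log2 scale. On the flavonol branch the main *FLS1* model (Aa31LG3G17900), flavonol synthase, had 5.41, 4.07 and 2.22 CPM in dark seeds against 80.6, 65.6 and 90.0 CPM in 14 d light seeds, a change of −4.34 ± 0.27. A second *FLS1* model was called at a low level, and that call was lost without any single dark library or without 14 d light library 1 or 2. *TT7*, which adds a hydroxyl group to the flavonoid ring, changed by −2.16 ± 0.13, so both branches were lower.

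Genes that decorate and move the finished pigments were also lower. *UGT79B1* (Aa31LG3G9960), an anthocyanin glycosyltransferase, had 8.12, 4.89 and 8.32 CPM in dark seeds against 229, 149 and 186 CPM in 14 d light seeds, a change of −4.66 ± 0.22. *UGT78D2* (Aa31LG11G12590), a flavonoid 3-O-glucosyltransferase, had no read in any dark library against 20 reads in 14 d light seeds, and was at least 6.51-fold lower, with 3 reads over the group as the limit that a count of 0 allows. *TT19* (Aa31LG11G12450), a glutathione S-transferase needed to carry anthocyanin to the vacuole, had 106, 99.4 and 97.1 CPM in dark seeds against 364, 171 and 292 CPM in 14 d light seeds and changed by only −1.43 ± 0.24. A set of 4 further decoration genes were picked after their values were seen, so they only extend the description. *UGT75C1*, *5MAT* and the model paired with AT1G03940, which add glucose, malonyl and coumaroyl groups to anthocyanins, changed by −2.96 ± 0.15, −1.37 ± 0.11 and −1.92 ± 0.11, and *RHM1*, which makes the rhamnose donor for flavonols, by −2.80 ± 0.14. *AHA10*, a proton pump of the pigment-storing vacuole, lost its call without 14 d light library 2 (change −1.86, adjusted p = 0.080, edgeR).

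**Figure D2:**
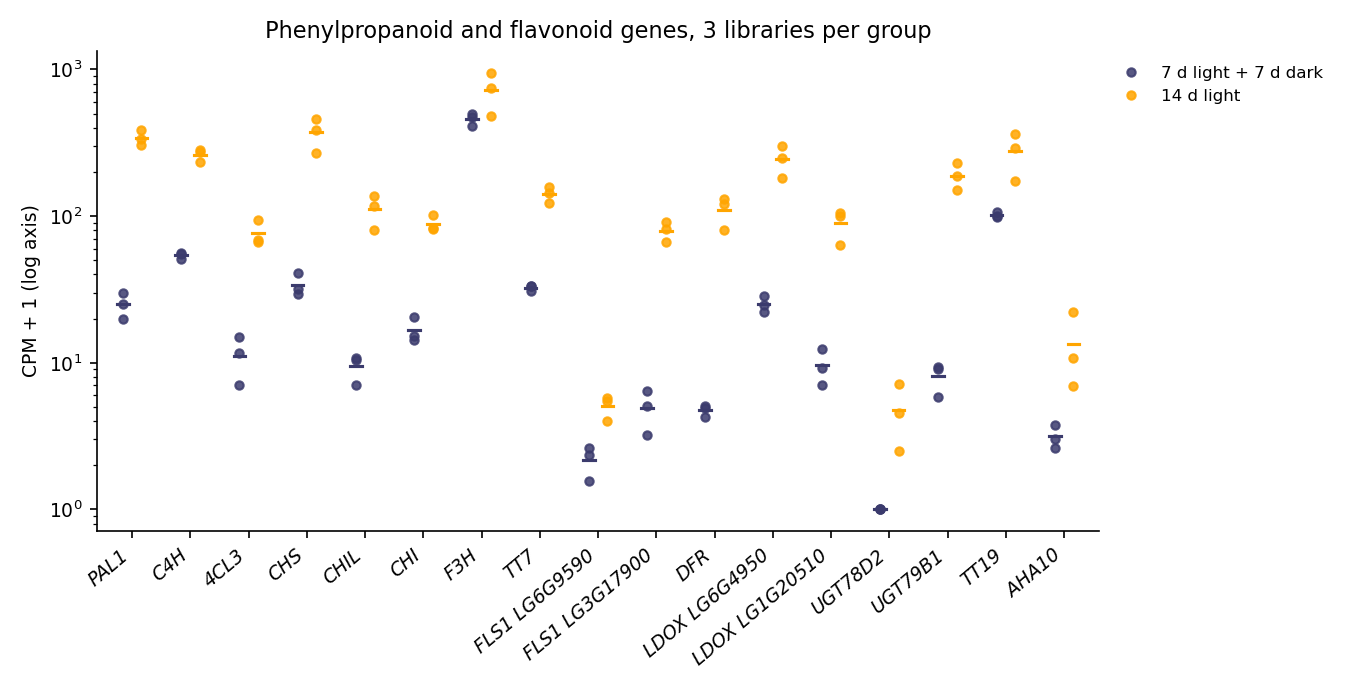
CPM + 1 on a log axis for each tested flavonoid gene model, in pathway order, with 1 point per library and a bar at the mean of 3 libraries for 7 d light + 7 d dark seeds (left of each pair) and 14 d light seeds (right of each pair). The groups are apart for every model except *F3H*, whose dark values of 471, 499 and 413 CPM overlap 14 d light library 2 at 482 CPM.

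Of 8 tested regulators of this pathway, 5 fell and none rose, with a median change of −1.60. *MYB75* (Aa31LG2G3050, PAP1 in Arabidopsis) switches on the anthocyanin branch and had 13.5, 13.9 and 13.3 CPM in dark seeds against 136, 77.9 and 117 CPM in 14 d light seeds. It was 7.90-fold lower (log2 change −2.98 ± 0.27, adjusted p = 1.75e-05, edgeR). *MYB12* (Aa31LG1G28760), which activates the flavonol branch, had 7.44, 12.2 and 6.66 CPM in dark seeds against 37.9, 23.8 and 30.7 CPM in 14 d light seeds, a change of −1.78 ± 0.30. Both activators were thus below the light range in each dark library. *MYBL2* (Aa31LG4G10020) is a repressor of anthocyanin genes, and it also was lower: no read in 3 dark libraries against 31 reads in 14 d light seeds, at least 10.1-fold. *TTG2* (Aa31LG5G22590), a WRKY factor of seed coat pigment, changed by −1.43 ± 0.25. *EGL3*, a bHLH partner of the MYB factors, lost its call without dark library 1 or without 14 d light library 2 or 3, and *TTG1*, the scaffold protein of the same complex, was not called (−0.20 ± 0.11).

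The same enzymes can be followed from the 7 d light seeds, with the caution that both comparisons then share the 7 d light libraries. *PAL1* averaged 24.0 ± 5.07 CPM in dark seeds and 342 ± 42.0 CPM in 14 d light seeds, and stood at 316 ± 2.90 CPM in 7 d light seeds (SD, n = 3 each). *DFR* averaged 3.73 ± 0.420 CPM in dark seeds and 109.5 ± 26.4 CPM in 14 d light seeds, with 67.9 ± 11.2 CPM in 7 d light seeds. For the list as a whole the median change from 7 d light was −2.81 in dark seeds and 0.37 in 14 d light seeds. Over all genes tested, dark seeds had 1289 models (8.42%) higher and 1529 (9.99%) lower than 7 d light seeds, whereas 14 d light seeds had 25 (0.163%) higher and 22 (0.144%) lower.

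Photoprotection genes fell together with the pigment genes. These encode proteins that shield chlorophyll or mend light-damaged DNA, and the 12 tested models had a median change of −2.16, with 9 lower and none higher. *ELIP1* (Aa31LG8G9340), an early light-induced protein that binds free chlorophyll, had 4.06, 2.44 and 2.22 CPM in dark seeds against 40.3, 38.5 and 46.5 CPM in 14 d light seeds. The level was 14.1-fold lower (log2 change −3.82 ± 0.22, adjusted p = 3.16e-07, edgeR). Its relative *ELIP2* (Aa31LG8G9320) changed by −3.56 ± 0.25, and the one-helix proteins *OHP1* and *OHP2*, which assist photosystem assembly, were lower as well. *OHP1* had 3 reads in dark seeds against 30 in 14 d light seeds, a count ratio of 9.76 with an exact 95% interval of 3.04 to 50.0 that covers counting error only, and *OHP2* changed by −1.40 ± 0.15.

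*SIG5* (Aa31LG11G3390), a nuclear-encoded sigma factor that directs transcription of a plastid photosystem gene under strong light, had 4.73, 8.15 and 6.66 CPM in dark seeds against 45.0, 47.1 and 53.2 CPM in 14 d light seeds. Its change was −2.91 ± 0.20 (adjusted p = 1.64e-06, edgeR), with no overlap. The DNA photolyases *PHR1* and *UVR3*, which use light to repair ultraviolet damage, changed by −2.37 ± 0.19 and −2.52 ± 0.41. *PSBS* (Aa31LG6G9330), the protein that triggers heat dissipation in photosystem II, averaged 37.4 ± 6.40 CPM in dark seeds and 144 ± 20.1 CPM in 14 d light seeds (SD, n = 3 each), a change of −1.94 ± 0.15. The ninth call, *LIL3.1*, was lost without dark library 2 or 3 or 14 d light library 2.

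The photosynthetic machinery itself differed far less. Of 17 tested genes of chlorophyll synthesis 7 were lower and 1 higher, with a median change of −0.38, but the lower count was 4 without dark library 1, dark library 3, 14 d light library 1 or 14 d light library 3. The firmest of them was *CHLP* (Aa31LG4G4730), geranylgeranyl reductase, which makes the phytol tail of chlorophyll. *CHLP* had 39.2, 43.2 and 35.0 CPM in dark seeds against 127, 91.4 and 113 CPM in 14 d light seeds, a change of −1.48 ± 0.15 (adjusted p = 3.33e-05, edgeR). *HEMC*, *CRD1* and *GSA1*, enzymes of earlier steps, changed by −0.92 ± 0.16, −0.72 ± 0.15 and −0.55 ± 0.11, each with no overlap. The 1 higher gene was *PORC*, a light-dependent protochlorophyllide oxidoreductase, with 123, 98.6 and 134 CPM in dark seeds against 61.6, 91.8 and 54.0 CPM in 14 d light seeds (0.74 ± 0.20). Without dark library 1 or 3, or without 14 d light library 1 or 3, this list had no higher gene.

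Of 35 tested photosystem and light-harvesting genes 8 were lower and 2 higher (median −0.32), and the lower count was 5 without dark library 1, dark library 3 or 14 d light library 3. The higher count was 0 without dark library 1, dark library 2 or 14 d light library 3. *FNR2*, ferredoxin-NADP reductase, which passes electrons to NADP, averaged 3.64 ± 1.12 CPM in dark seeds and 18.5 ± 5.34 CPM in 14 d light seeds (SD, n = 3 each), a change of −2.25 ± 0.33 (adjusted p = 8.71e-04, edgeR). One of the *FD2* models (Aa31LG2G9630), a leaf ferredoxin, changed by −1.30 ± 0.19, while the other (Aa31LG1G3910) overlapped between groups with −0.23 ± 0.23. *PSAP*, a thylakoid membrane protein, and *PSAD2*, a photosystem I subunit, changed by −1.10 ± 0.19 and −1.03 ± 0.21. Of this list 25 tested genes were not called.

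Calvin cycle genes gave 5 lower and 1 higher of 17. *PRK* (Aa31LG2G13940), phosphoribulokinase, which regenerates the acceptor of carbon dioxide, had 3.38, 3.26 and 4.99 CPM in dark seeds against 24.9, 27.9 and 24.7 CPM in 14 d light seeds. It was 6.51-fold lower (log2 change −2.70 ± 0.33, adjusted p = 1.95e-04, edgeR). *GAPA1*, a plastid glyceraldehyde phosphate dehydrogenase, was 4.17-fold lower (−2.06 ± 0.42). *SBPASE* and *FBA2*, a bisphosphatase and an aldolase of the same cycle, changed by −1.06 ± 0.13 and −0.76 ± 0.12. The single higher gene lost its call without any dark library and without 14 d light library 2 or 3.

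Among 14 photoreceptor genes 2 rose and 1 fell. *PHYA* (Aa31LG1G5460) encodes phytochrome A, the light-labile phytochrome that accumulates in darkness and acts in the most sensitive light responses of seeds. It had 389.5, 273 and 425 CPM in dark seeds against 134, 128 and 103 CPM in 14 d light seeds, and the lowest dark value was above the highest light value. The level was 2.98-fold higher (log2 change 1.58 ± 0.16, adjusted p = 3.81e-05, edgeR). *ZTL* (Aa31LG3G13240), a blue-light receptor that targets clock proteins for breakdown, went the other way, with 17.6, 17.9 and 25.5 CPM in dark seeds against 80.6, 81.2 and 75.7 CPM in 14 d light seeds (−1.93 ± 0.15). The second higher call, *CRY1*, was lost without dark library 2 or 3 or 14 d light library 1 or 2. The phytochrome gene *PHYE* was also lower without 14 d light library 3. With length and read density trends removed 4 photoreceptor genes were lower, *PHOT1*, *PHYD* and *PHYE* beside *ZTL*. *PHYB*, the main phytochrome of light-grown plants, was not called, at 0.09 ± 0.34.

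Light signalling genes downstream gave 8 lower and 3 higher of 30 (median −0.43), and the higher count was 1 without dark library 1 or 3. The clearest loss was in the SPA family, whose proteins work with COP1 in darkness. The *SPA3* model Aa31LG10G2040 had no read in any dark library against 17.8, 18.0 and 14.2 CPM in 14 d light seeds. With 78 reads in the light group, it was at least 25.4-fold lower, the largest such limit among called genes with no dark read. A second *SPA3* model (Aa31LG8G2520) changed by −2.08 ± 0.23, with 13.5, 4.89 and 11.7 CPM in dark seeds against 37.9, 49.6 and 41.2 CPM in 14 d light seeds. *SPA1* (Aa31LG1G27710) changed by −1.49 ± 0.18, whereas *SPA2* and *COP1* itself were not called, at −0.24 ± 0.23 and −0.18 ± 0.17. Reads shared by the 2 near relatives could have been counted for either, since no source used here describes the handling of such reads.

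The bZIP factor *HYH* (Aa31LG8G4480), which acts beside HY5, had 25.0, 31.0 and 18.9 CPM in dark seeds against 146, 85.7 and 125 CPM in 14 d light seeds, a change of −2.24 ± 0.25 (adjusted p = 1.14e-04, edgeR). *HY5* (Aa31LG3G15930) was not called. It had 69.0, 110.0 and 70.5 CPM in dark seeds against 184, 84.4 and 157 CPM in 14 d light seeds, and again 14 d light library 2 was the one inside the dark range. Its change of −0.74 ± 0.27 had an adjusted p of 0.097 with all libraries and was −1.04 with an adjusted p of 0.0067 without that library (edgeR). Leaving out the overlapping library necessarily widens the difference. Of 14 alternatives 2 called *HY5* lower, that one and the removal of length and read density trends. Over the 14 its change ran from −1.04 to −0.50. *RUP1*, which ends ultraviolet-B signalling, had 1 read in dark seeds against 28 in 14 d light seeds, a count ratio of 27.3 with an exact 95% interval of 4.52 to 1118 (counting error only).

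*PIF5* (Aa31LG10G13550), a phytochrome-interacting factor that promotes growth in darkness and shade, was the most changed of the higher genes. It had 44.0, 35.0 and 35.5 CPM in dark seeds against 7.11, 13.9 and 9.00 CPM in 14 d light seeds, 3.43-fold higher (log2 change 1.78 ± 0.25, adjusted p = 4.95e-04, edgeR). A *PIF1* model (Aa31LG8G17110), whose Arabidopsis gene represses germination in darkness, and the shade-induced gene *ATHB2* were also called higher. Both lost the call without dark library 1 or 3, among others. The second *PIF1* model (Aa31LG2G21580) was not called, and its change ran from −1.81 to −0.36 over 13 alternatives. *PIF4*, a close relative of *PIF5*, was not called (−0.42 ± 0.29).

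**Figure D3:**
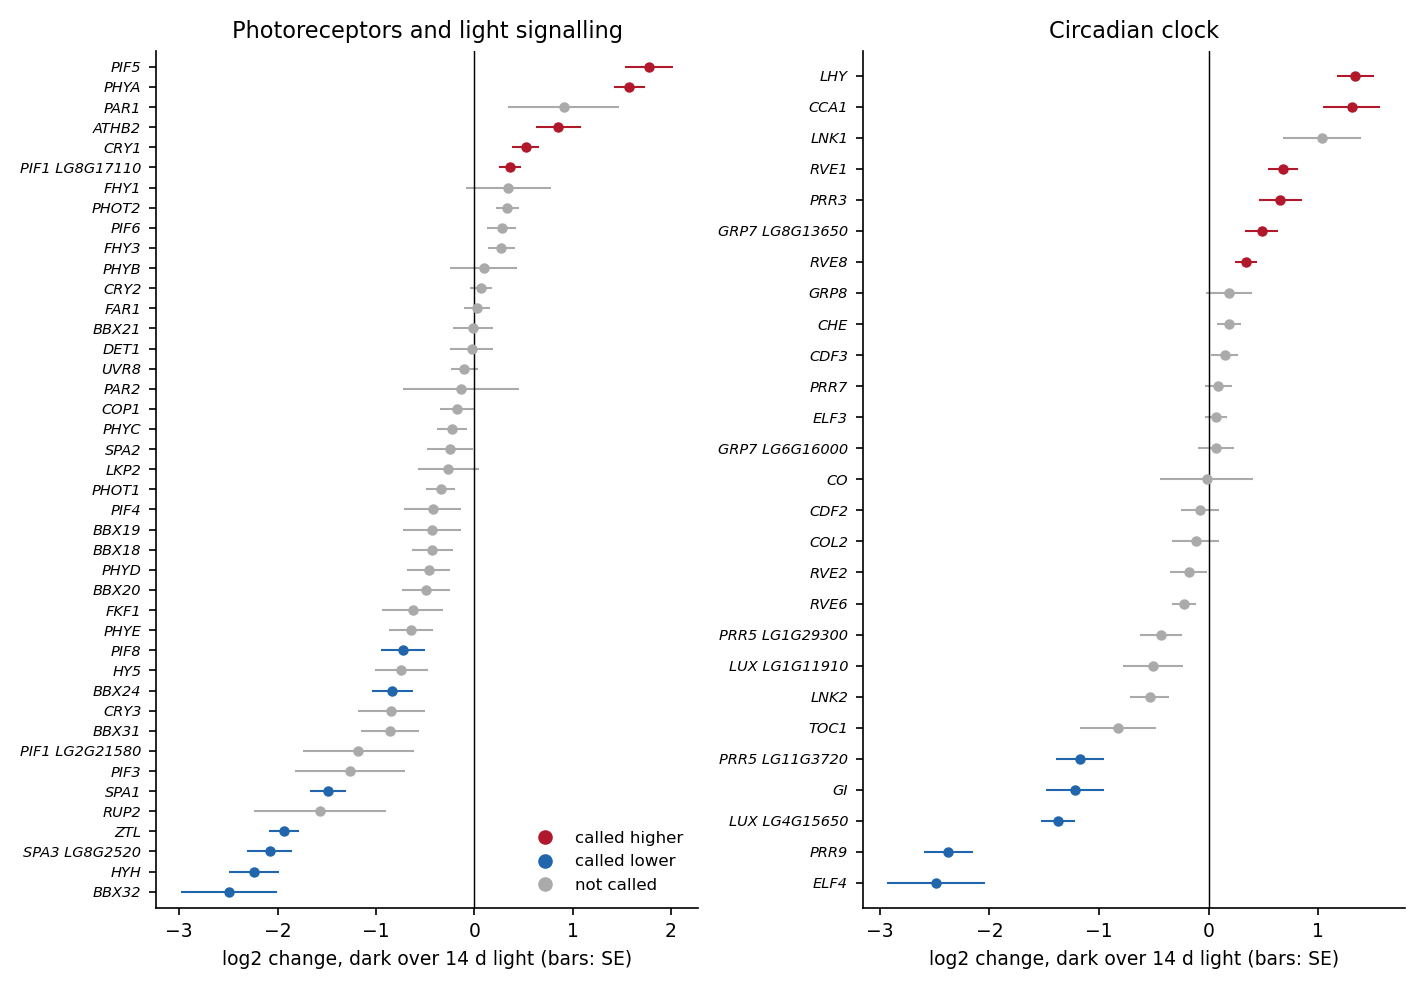
Log2 change of 7 d light + 7 d dark seeds over 14 d light seeds with its standard error, for photoreceptor and light signalling genes (left) and clock genes (right), coloured by call. *PHYA* and *PIF5* are at the top of the left panel with 1.58 and 1.78, *LHY* and *CCA1* at the top of the right panel with 1.34 and 1.31. The *SPA3* model and *RUP1*, whose dark group held 0 and 1 reads, are not drawn.

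Clock genes moved in both directions. The circadian clock of Arabidopsis is a loop in which morning factors repress evening genes and the reverse, and of 27 tested clock genes 6 were higher and 5 lower, with a median of −0.02. The morning MYB factor *LHY* (Aa31LG1G10420) had 361, 313 and 375 CPM in dark seeds against 105, 177 and 125 CPM in 14 d light seeds. The change was 1.34 ± 0.17 (adjusted p = 2.50e-04, edgeR). Its partner *CCA1* (Aa31LG1G28200) had 34.5, 31.8 and 48.8 CPM in dark seeds against 10.7, 18.4 and 15.0 CPM in 14 d light seeds, a change of 1.31 ± 0.26, and their relative *RVE1* changed by 0.68 ± 0.14. The other 3 higher genes lost their calls when single libraries were left out, and the higher count was 3 without dark library 1, dark library 2 or 14 d light library 2.

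The lower genes act by day or in the evening in Arabidopsis. *PRR9* (Aa31LG1G28160), a light-induced pseudo-response regulator that represses *LHY* and *CCA1*, had 9.47, 17.1 and 12.8 CPM in dark seeds against 72.3, 55.3 and 78.0 CPM in 14 d light seeds, 5.18-fold lower (log2 change −2.37 ± 0.22). *ELF4* and *LUX*, members of the evening complex, changed by −2.49 ± 0.45 and −1.37 ± 0.15, while a second *LUX* model (Aa31LG1G11910) was not called. *GI*, a stabiliser of ZTL protein, had 81.2, 48.1 and 98.2 CPM in dark seeds against 141, 242 and 145 CPM in 14 d light seeds, a change of −1.22 ± 0.27. *ELF3*, *PRR7* and *TOC1* were not called, at 0.07 ± 0.10, 0.09 ± 0.12 and −0.83 ± 0.35. The hour of collection is not given in the labels, so a difference in phase and a difference in level cannot be told apart.

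Hormone genes moved in both directions. Abscisic acid is made through 9-cis-epoxycarotenoid dioxygenases and broken down by the CYP707A enzymes. *NCED5* (Aa31LG6G5570) had 17.6, 14.7 and 21.6 CPM in dark seeds against 55.7, 66.0 and 57.7 CPM in 14 d light seeds, 3.31-fold lower (log2 change −1.73 ± 0.16, adjusted p = 2.13e-05, edgeR). *NCED6* (Aa31LG8G10550), a seed-expressed member of the same family, had 121, 93.7 and 124 CPM in dark seeds against 73.5, 81.2 and 63.7 CPM in 14 d light seeds. Its change of 0.63 ± 0.14 (adjusted p = 0.0101) had an adjusted p of 0.051 without 14 d light library 3 and of 0.058 in the fit of the 6 libraries alone (edgeR). Of 8 tested synthesis genes 2 were higher and 2 lower, and without single libraries these counts were 0 to 1 and 1 to 2. The other calls, *ABA1* lower and *ABA2* higher, were lost without any dark library and without 14 d light library 1 or 3, and *ABA2* also without 14 d light library 2.

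For abscisic acid breakdown, 1 of 3 tested models was called, and it was lower. *CYP707A2* (Aa31LG5G7160), the main 8'-hydroxylase of imbibed Arabidopsis seeds, had 19.6, 35.8 and 25.0 CPM in dark seeds against 119.7, 98.8 and 103 CPM in 14 d light seeds. It was 4.02-fold lower (log2 change −2.01 ± 0.18, adjusted p = 1.35e-05, edgeR). This gene differed from 7 d light seeds on both sides: from 54.2 ± 7.52 CPM in 7 d light seeds (SD, n = 3), the change was −1.05 in dark seeds (adjusted p = 0.00199) and 0.96 in 14 d light seeds (adjusted p = 0.0179, edgeR), with the 7 d light libraries shared. Neither of 2 models paired with *CYP707A3* was called. *PYL11* (Aa31LG9G7200), an abscisic acid receptor, had 5.41, 8.96 and 8.32 CPM in dark seeds against 134, 74.2 and 117 CPM in 14 d light seeds, a change of −3.79 ± 0.31. Another receptor, *PYL5* (Aa31LG11G6510), was higher in each dark library (0.57 ± 0.13), and the transcription factor gene *ABF1* (Aa31LG10G4330) changed by 0.67 ± 0.10, so the receptors did not share a direction.

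Gibberellin genes showed opposite changes within the pathway. The GA20-oxidases make the precursors, the GA3-oxidases make the active hormone and the GA2-oxidases inactivate it. *GA20OX2* (Aa31LG3G8250) had 111, 93.7 and 116 CPM in dark seeds against 33.2, 34.4 and 37.5 CPM in 14 d light seeds, 3.05-fold higher (log2 change 1.61 ± 0.17, adjusted p = 6.01e-05, edgeR), and *GA20OX1* changed by 1.01 ± 0.20. *GA3OX2* (Aa31LG4G610) had 2.71, 3.26 and 0.555 CPM in dark seeds against 24.9, 25.8 and 22.5 CPM in 14 d light seeds, 12.0-fold lower (−3.58 ± 0.35, adjusted p = 2.97e-05). The groups were apart for each of the 3, with the precursor enzymes up and the activating enzyme down.

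The models paired with *GA2OX2* split in the same way. Aa31LG10G6850 had 1.35, 0.815 and 0.555 CPM in dark seeds against 19.0, 17.2 and 29.2 CPM in 14 d light seeds, a change of −4.51 ± 0.53. The other copy, Aa31LG6G5630, had 98.7, 65.2 and 105 CPM in dark seeds against 23.7, 27.1 and 21.0 CPM in 14 d light seeds, a change of 1.89 ± 0.26. In 7 d light seeds the 2 copies averaged 33.3 ± 8.99 and 8.48 ± 4.71 CPM (SD, n = 3 each). *RGL1*, a DELLA repressor of gibberellin responses, had 2 reads in dark seeds against 27 in 14 d light seeds, a count ratio of 13.2 with an exact 95% interval of 3.31 to 114. The receptor genes *GID1A* and *GID1B* were called higher. *GID1A* lost the call without dark library 1 or 14 d light library 3, and *GID1B* without dark library 1 or 3 or 14 d light library 1 or 3.

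**Figure D4:**
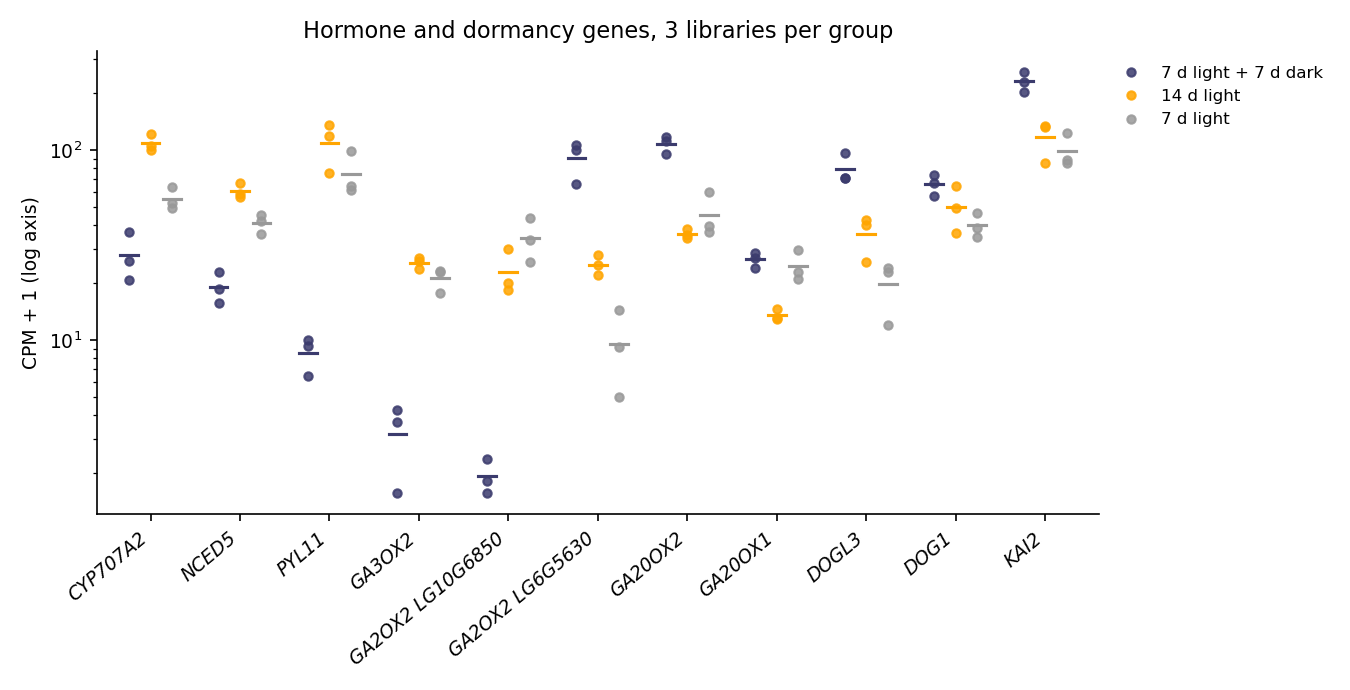
CPM + 1 on a log axis for abscisic acid, gibberellin and dormancy genes, with 1 point per library and a bar at the mean of 3 libraries for 7 d light + 7 d dark seeds (left), 14 d light seeds (middle) and 7 d light seeds (right). *GA3OX2* lies at 0.555 to 3.26 CPM in dark seeds and 22.5 to 25.8 CPM in 14 d light seeds, while *GA20OX2* averages 107 CPM in dark seeds and 35.0 CPM in 14 d light seeds.

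Of 23 tested dormancy regulators 4 were higher and 1 lower, and the higher count was 2 without dark library 1 or 2. The lower gene, *TZF6*, lost its call without any dark library and without 14 d light library 3, and a second gene was lower without 14 d light library 2. *DOG1* (Aa31LG9G7230), the central dormancy gene of Arabidopsis seeds, was not called. It had 73.0, 66.0 and 56.0 CPM in dark seeds against 48.6, 35.7 and 63.7 CPM in 14 d light seeds, and the groups overlapped through 14 d light library 3. Its change of 0.43 ± 0.20 (adjusted p = 0.181) was 0.68 with an adjusted p of 0.046 without that library (edgeR). Leaving out the overlapping library necessarily widens the difference, and this was the only 1 of 14 alternatives that called *DOG1*. Over the 14 its change ran from 0.18 to 0.68. *DOGL3* (Aa31LG6G1420), a relative of *DOG1*, had 70.3, 95.3 and 69.9 CPM in dark seeds against 39.1, 24.6 and 42.0 CPM in 14 d light seeds (1.21 ± 0.24, adjusted p = 0.00521, edgeR). *FLC*, a flowering repressor that also acts on temperature-dependent germination, changed by 0.56 ± 0.11, and its call was lost in the fit of the 6 libraries alone. Outside this list, *KAI2* (Aa31LG6G14340), the karrikin receptor, had 227, 257 and 201 CPM in dark seeds against 133, 84.4 and 131 CPM in 14 d light seeds, a change of 1.00 ± 0.19.

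The genes known from dark-treated or starved leaves had a median change of 0.49, with 6 of 14 called higher and 8 not called. Over the alternatives 4 to 8 were called higher. They respond to low sugar through the kinase SnRK1. *DIN9* (Aa31LG2G3470), a phosphomannose isomerase induced by darkness, had 21.0, 15.5 and 14.4 CPM in dark seeds against 4.74, 3.28 and 3.00 CPM in 14 d light seeds, 4.80-fold higher (log2 change 2.26 ± 0.34, adjusted p = 9.54e-04, edgeR). One *EXL2* model (Aa31LG3G17570), a carbon-starvation marker family, had 93.3, 92.1 and 97.1 CPM in dark seeds against 43.8, 40.2 and 31.5 CPM in 14 d light seeds (1.30 ± 0.14), while the other (Aa31LG1G17640) was not called (0.15 ± 0.23). *BZIP63*, a factor activated by SnRK1, changed by 1.28 ± 0.26, and *KIN10*, the catalytic subunit of that kinase, by 0.58 ± 0.10. The trehalose phosphate genes *TPS9* and *TPS10* lost their calls in the fit of the 6 libraries alone, and *TPS10* also without dark library 1 or 3 or 14 d light library 1 or 3. *ASN1*, the asparagine synthetase long known as dark-inducible, was not called, at 0.29 ± 0.13.

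Genes that burn amino acids for energy gave 2 higher and 1 lower of 9. *IVD* and *MCCA*, enzymes of leucine breakdown, averaged 144 ± 18.1 and 83.0 ± 8.52 CPM in dark seeds and 85.1 ± 2.01 and 49.6 ± 2.34 CPM in 14 d light seeds (SD, n = 3 each), with changes of 0.75 ± 0.12 and 0.74 ± 0.13. *ERD5*, proline dehydrogenase, was lower (−1.02 ± 0.14). Autophagy genes gave 1 call among 20 tested (median 0.03). That gene, *NBR1*, a receptor that delivers cargo to autophagy, lost its call without any single dark library and without 14 d light library 2 or 3.

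Sugar transport genes were among the changed ones in a list with 2 higher and 1 lower of 15 (2 lower without 14 d light library 2). *SWEET15* (Aa31LG3G14490), a sucrose exporter of the seed coat and endosperm, had 4.06, 2.44 and 1.11 CPM in dark seeds against 28.4, 22.5 and 24.7 CPM in 14 d light seeds, 9.84-fold lower (log2 change −3.30 ± 0.37, adjusted p = 1.06e-04, edgeR). The hexose importers *STP1* and *STP13* were higher, by 1.68 ± 0.25 and 0.74 ± 0.12. No gene of starch breakdown in the list was called. Of 6 nitrate genes 3 fell: both nitrate reductases, *NIA1* and *NIA2*, by 1.48 ± 0.30 and 1.51 ± 0.22 on the log2 scale, and the seed nitrate transporter *NRT2.7* by 0.73 ± 0.11. *NIA2* (Aa31LG6G9110) had 41.3, 34.2 and 45.5 CPM in dark seeds against 90.0, 139 and 111 CPM in 14 d light seeds. Without 14 d light library 2 the nitrate list also had 1 higher gene. Oil mobilisation genes gave 2 higher and 1 lower of 21, or 2 lower without 14 d light library 1. The lower one was the thiolase gene *KAT5*, which also has a role in flavonoid synthesis, with 2 reads in dark seeds against 40 in 14 d light seeds, a count ratio of 19.5 with an exact 95% interval of 5.06 to 167. *LACS7*, which activates fatty acids in peroxisomes, was higher (0.54 ± 0.10).

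The 12 largest rises among well-covered genes held few members of these lists. Candidates had at least 8 CPM on average, no overlap and a paired name, and 865 higher and 877 lower genes met this. The model paired with AT1G62770, a pectin methylesterase inhibitor family gene, had 33.8, 31.8 and 36.6 CPM in dark seeds against 4.74, 3.28 and 2.25 CPM in 14 d light seeds (3.38 ± 0.28, adjusted p = 8.14e-06, edgeR). It averaged 9.23 CPM in 7 d light seeds and 38.1 CPM after 23 h of light. The xyloglucan-modifying wall gene *XTH11* (Aa31LG4G17200) had 81.2, 79.8 and 84.9 CPM in dark seeds against 16.6, 20.5 and 14.2 CPM in 14 d light seeds (2.21 ± 0.21). *EPF1* (Aa31LG8G17790), a secreted peptide that limits stomatal number, changed by 2.20 ± 0.21, and the vacuolar metal transporter gene *IREG2* by 2.81 ± 0.40. Others were the glycine-rich oleosin-like *GRP17* and a lipid transfer family gene paired with AT2G10940, with 3.23 ± 0.42 and 3.26 ± 0.42. The set also held *DIN9* and models paired with AT2G34610, AT1G44760, AT1G19115, AT1G58210 and AT1G10020.

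The largest falls were mostly genes named above: *SPA3*, *DFR*, *UGT79B1*, a *GA2OX2* copy, *FLS1*, *ELIP1*, *PAL1*, *PYL11* and *CHIL*. The model paired with AT4G15480 (Aa31LG9G1940), a glycosyltransferase that makes glucose esters of phenylpropanoid acids, had 2.71, 0 and 0 CPM in dark seeds (4 reads in all) against 53.3, 71.3 and 75.7 CPM in 14 d light seeds (−6.18 ± 0.47). The model paired with AT5G24155 (Aa31LG11G3420), an oxidoreductase family gene, was 18.4-fold lower (−4.20 ± 0.51). A short gene paired with AT3G44450 had no read in dark seeds against 66 in 14 d light seeds, at least 21.5-fold lower. In all, 14 called genes had no read in the dark group and 2 had none in the 14 d light group. Such genes passed the count filter only through the other groups of the fit, and all groups but the dark one were in light. The 14 and the 2 are thus not a balanced comparison of directions. Those without a 14 d light read were paired with AT3G54830, an amino acid transporter family gene, at least 14.0-fold higher in dark seeds, and AT1G12090, an extensin-like gene, at least 9.90-fold higher. Sterol genes were picked after their values were seen: *DWF1*, a late step of brassinosteroid precursor synthesis, changed by 1.86 ± 0.23, and *SMT2*, a sterol methyltransferase, by 1.51 ± 0.14. *SMT2* averaged 61.6 CPM in dark seeds and 21.5 CPM in 14 d light seeds, and 53.3 CPM in 7 d light seeds.

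Seed storage and desiccation genes gave no calls. None of 13 storage and oil body genes and none of 14 late embryogenesis genes was called, with medians of −0.09 and −0.07. With 1 library left out those medians ran from −0.384 without 14 d light library 2 to 0.253 without 14 d light library 1, and from −0.325 to 0.214 without the same libraries, so they had no firm sign. Without 14 d light library 1 the storage list had 1 higher gene. Some of these genes were among the densest models, with up to 0.838 reads per base in the storage list and 0.908 in the late embryogenesis list, and with length and read density trends removed the medians were −0.06 and −0.02. Their summed levels were 4291 to 5866 CPM in dark libraries against 3275 to 7584 CPM in 14 d light libraries for the storage list, and 2726 to 3684 CPM against 2190.3 to 4492 CPM for the late embryogenesis list. Within the 14 d light group, library 1 exceeded library 2 by a median of 1.23 (log2) over the storage list, 1.10 over the late embryogenesis list and 0.84 over cytosolic ribosomal protein genes, beside −0.05 over all genes. Library 1 held 916523 reads and library 2 held 2448092, while counts reached at most 0.782 and 0.996 reads per base in them. Beyond the removal of trends, the part of read depth in the levels and calls of these lists was not tested. The ribosomal list had 10 lower and 0 higher of 150 (median −0.19), and the lower count was 29 without 14 d light library 2, but 5 without dark library 1, 3 without dark library 3 and 5 without 14 d light library 1 or 3. The models paired with plastid-encoded and mitochondrial genes gave no call among 14 and 33, with medians of −0.10 and −0.01. From 7 d light, however, their medians were 1.11 and 1.95 in dark seeds and 1.21 and 1.90 in 14 d light seeds, with the 7 d light libraries shared. Called higher than in 7 d light seeds were 8 of 14 and 18 of 33 in dark seeds. In 14 d light seeds 7 of 14 but only 1 of 33 were called, so the mitochondrial median there rests mostly on uncalled genes.

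Markers of seed parts were sparse. The tested root markers, 5 of them, summed to 57.5 to 61.0 CPM in dark libraries against 64.0 to 85.7 CPM in 14 d light libraries, and none was called. The 2 tested seed coat markers summed to 86.6 to 97.8 CPM in dark libraries against 79.1 to 99.5 CPM in 14 d light libraries, also with no call. *EXPA2*, an expansin of the germinating endosperm, was at 0 in all dark, 14 d light and 7 d light libraries. The 3 shoot and epidermis markers summed to 184 to 203 CPM in dark libraries against 138 to 184 CPM in 14 d light libraries, and *ATML1*, an epidermal factor, was called higher (0.46 ± 0.13, adjusted p = 0.034, edgeR). That call was lost without any single dark library and without 14 d light library 1 or 3. The part of the tissue makeup in the differences above was not tested.

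The remaining lists held few calls. Among 12 abscisic acid receptor and kinase genes 3 were higher and 2 lower, with 1 higher without dark library 2 or 14 d light library 2 and 1 lower without dark library 3 or 14 d light library 3. Heat shock genes gave 1 higher and 1 lower of 16, and both calls were lost without dark library 1, dark library 3 or 14 d light library 3, the lower one also without dark library 2 or 14 d light library 1. Cell cycle genes gave 0 higher and 1 lower of 24, with 1 higher without dark library 1 or 14 d light library 2 and 0 to 2 lower with 1 library left out, and embryo maturation genes no call among 6. Antioxidant genes gave 3 lower of 12, but 1 without dark library 3, and 2 higher without 14 d light library 1. Wall-loosening genes gave 1 higher and 2 lower of 16. The higher expansin gene *EXPA1* lost its call without dark library 3 or 14 d light library 2 and the lower expansin gene *EXPA15* without dark library 3, while a mannanase model, *MAN5* (Aa31LG2G22180, −1.06 ± 0.19), kept its call under every alternative run. Genes of cutin and wax gave 1 higher and 2 lower of 14. The lower *KCS1*, for very long chain fatty acids, lost its call without 14 d light library 2, and *LTPG1*, for wax export, without dark library 1 or 3 or 14 d light library 1 or 3. Most genes of each of these lists were thus not called in either direction.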

How the data were processed

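Polyadenylated RNA of imbibed seeds was made into libraries with a Lexogen SENSE kit, per the labels' protocols. The authors deposited 1 table with raw read counts, RPKM values and a length for 24932 gene models, of which 21661 have a paired Arabidopsis gene. The submitters' processing notes name bcl2fastq 2.17.1, Trimmomatic, Bowtie2 2.3.5.1, HTSeq 0.11.2 and TAIR10, without their roles. Strand setting, read sharing between near-identical or overlapping genes, duplicates and coordinates are stated by no source used here, so such genes are uncertain.

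Counts were used as deposited. The RPKM values the authors deposited were not used. All 12 libraries were fitted with 4 group means in edgeR 4.0.16 (R 4.3.3; filterByExpr by group, TMM, quasi-likelihood F-test, two-sided, Benjamini-Hochberg over 15301 genes, threshold 0.05). A floor of 3 counts over a group and exact 95% count intervals were used where a group held 3 counts or fewer. In simulated counts for this comparison (14793 genes in the fit), known changes were put only into genes of at least 8 CPM. Of these, 75% of 100 genes changed 2-fold and 98% of 100 changed 4-fold were recovered, with 6 false calls of 179. The simulated counts held no library-wide trends with length or read density, so these rates may not hold for the real calls or for genes of lower level.

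The comparison and 41 gene lists were chosen with earlier results of these data known, and lists are described by counts and medians, with no list test. Genes named were taken from the 12 largest rises and falls (at least 8 CPM, no overlap, paired name), up to 4 called members per list with the smallest adjusted p, and members of the light, flavonoid, clock, starvation and hormone lists. PORC, the uncalled FD2 model and EXPA2 were named after their values were seen. Alternatives were other scaling, no filter, DESeq2 1.42.0, the 6 libraries alone, a replicate block, each library left out, removal of length and density trends, and removal of the densest models.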

Additional observations from a re-analysis of the deposited data

How the results depend on the processing

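Of 194 genes followed, 134 kept their call or lack of one under each of the 14 alternatives in which they were tested. The fit of the 6 libraries alone tested 171 of the 194. In it 31 lost their call, among them *NCED6*, *CRY1*, *GID1A*, *ATML1* and *NBR1*. The fit without 14 d light library 2 tested 193, and the one without the densest models 191. Over 2689 values, 212 lost a call, 27 gained one and 0 changed direction with a call. Fitting only the 6 libraries compared gave 365 higher and 491 lower genes, with 309 lower by at least 2-fold, and fewer samples then inform the spread. Leaving out 1 library gave 519 to 1137 higher genes, 639 to 1104 lower genes, 145 to 296 genes at least 2-fold higher and 390 to 506 at least 2-fold lower. With the replicate block there were 666 higher and 834 lower genes. Same-numbered dark and 14 d light libraries did not deviate together (correlations 0.01, −0.45 and −0.29). With 3 libraries a group, these values cannot show whether a number marks a shared batch, and the libraries were not treated as pairs. DESeq2 called 782 higher and 905 lower. Scaling to total counts alone gave 775 higher and 1212 lower, 39.0% of calls higher against 46.3%, and removing length and density trends gave 1098 higher and 1479 lower, of which 1000 lower genes (67.6%) were shared with the reported calls. With no filter on low counts the median of gibberellin inactivation, −3.01 over 3 tested models, was 0, and that of nitrate, −0.34, was 0.019, with more models of few counts entering. Other medians changed sign: abscisic acid synthesis 3.2e-04 without dark library 2 and 0.13 without 14 d light library 2 (range −0.144 to 0.129 with 1 library left out), and oil mobilisation −0.0199 without dark library 2 and −0.0115 without 14 d light library 2 (range −0.0199 to 0.119) and −0.0349 with length and density trends removed. With 1 library left out the medians also crossed 0 for storage (−0.384 to 0.253), late embryogenesis (−0.325 to 0.214), ribosomal protein (−0.41 to 0.02), cell cycle (−0.197 to 0.0555), antioxidant (−0.248 to 0.0549), autophagy (−0.0714 to 0.156), clock (−0.0598 to 0.0752), starch and sugar (−0.0948 to 0.0972) and abscisic acid transcription factor genes (−0.0254 to 0.239). The cause was not tested. With 916523 to 2448092 reads a library, genes of a few CPM rest on a few reads, and their standard errors are wide.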
